A study of Homo sapiens with 60 samples.

Results

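A set of 10 feedback genes of the ERK pathway was followed through drug exposure and drug withdrawal in lung cancer cell lines (NSCLC) that carry EGFR mutations. They are the phosphatase genes DUSP4, DUSP5 and DUSP6, the Sprouty genes SPRY1, SPRY2 and SPRY4, the Spred genes SPRED1, SPRED2 and SPRED3, and PHLDA1. The 10 genes were chosen by name from the 19712 genes listed by symbol in the deposited tables, and all 10 were found. The lines were PC9, H1975, HCC827 and HCC2935. Each of these 4 lines had 5 arms of 3 libraries, 60 libraries in all. The control arm received DMSO, the solvent, for 24 h. The acute arm received 500 nM osimertinib, an EGFR inhibitor that binds the mutant receptor covalently, for 24 h, and cells of both these arms had first been grown for 21 days without drug. The DTP arm holds the cells that survived 500 nM osimertinib for 21 days, called drug-tolerant persisters. In the short washout arm persisters were kept for a further 24 h without drug. In the long washout arm the drug-free time differed between the lines, at 7 days in PC9, 96 h in HCC827, 72 h in H1975 and 10 days in HCC2935, so that line and washout time cannot be told apart in that arm. The labels describe biological triplicates but do not say whether they were separate cultures, and p-values measure the spread between these samples. RNA came from whole cultures, in which less RNA per cell cannot be told apart from fewer cells that express a gene.

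When EGFR is active, RAS activates the kinases RAF, MEK and ERK in turn, and ERK induces genes whose products restrain the same pathway. DUSP6 dephosphorylates ERK in the cytoplasm, while DUSP4 and DUSP5 are nuclear phosphatases that act on MAP kinases. Sprouty proteins act between the receptor and RAF, Spred proteins bring the RAS inhibitor neurofibromin to the membrane, and PHLDA1 is a pleckstrin homology-like domain protein that is induced by growth factors. The mRNA of DUSP6, SPRY4 and PHLDA1 is widely used to read the output of the ERK pathway in EGFR-mutant lung cancer cells.

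A library held between 17.7 and 49.1 M estimated counts, with more in PC9 (34.7 to 47.1 M) and H1975 (38.7 to 49.1 M) than in HCC827 (17.7 to 25.1 M) and HCC2935 (18.6 to 25.6 M). The replicates of a group differed by 8.97 to 138 times the counting error over 60 pairs of replicates, so that no library was counted as a copy of another. Summed over 5 epithelial markers, every library held between 1827 and 18154 CPM (TMM-normalized counts scaled to the size of the library), against at most 553 CPM for markers of leukocytes, fibroblasts or endothelium. Keratins made up most of that sum in H1975, where CDH1, which encodes E-cadherin, was at 123 to 335 CPM under DMSO and 127 to 405 CPM in the acute arm, but at 3.79 to 9.80 CPM over DTPs and both washouts. EPCAM in H1975 was at 63.4 to 244 CPM in the former arms and at 16.6 to 23.4 CPM in the latter. Summed fibroblast markers in H1975 were at 64.8 to 161 CPM under DMSO and 258 to 553 CPM in the acute arm. Over DTPs and both washouts they were at 112 to 376 CPM. In HCC827 CDH1 was at 981 to 1104 CPM under DMSO and 132 to 496 CPM over DTPs and both washouts. The part of these changes in the results of the members was not tested. Of the 60 libraries, 48 lay nearest to the other libraries of their own arm across all genes and 12 lay nearest to another arm of their line, of which 7 were from HCC827. The 12 held every DTP and short washout library of HCC827 and every DTP library of H1975. The rest were single long washout libraries of HCC827, HCC2935 and PC9. Replicate 3 of the long washout of PC9 was nearer to short washout (a root mean square distance of 0.277 in log2 CPM) and to DTPs (0.320) than to its own arm (0.465), and results that rest on it are given with and without it.

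The members lie on 9 chromosomes, with DUSP6 and PHLDA1 both on chromosome 12. In GENCODE release 29 (GRCh38), DUSP6 spans chr12:89347232-89353271, PHLDA1 chr12:76025447-76033932, SPRY4 chr5:142310427-142326455, SPRY2 chr13:80335976-80340951 and SPRED2 chr2:65310851-65432637, all on the minus strand. DUSP6, SPRY4 and PHLDA1 overlap genes on the opposite strand, SPRED2 overlaps a gene on the same strand, and DUSP5 has named pseudogenes. Whether strand was used in the counting is not stated, so that reads of neighbours on the opposite strand may have been counted with the member. Strand would not separate the neighbour of SPRED2. The 250 bases before each annotated start were searched in a RefSeq promoter table (GRCh38.p14), which held 13 starts of 8 members. The letters AGGAAG, a core of sites bound by ETS factors such as those ERK phosphorylates, occurred on either strand in 9 of 13 windows from 6 of the 8 genes (DUSP6, SPRY1, SPRY2, SPRED1, SPRED2 and SPRED3), and in 28.7% of all 35116 windows of that length. The related CGGAAG occurred in 3 windows (of DUSP6, SPRY1 and PHLDA1) and in 16.5% of all windows. TGANTCA, the letters bound by AP-1, occurred once, in SPRED3 (6.57% of all windows). The cAMP response element TGACGTCA (1.65%) and the CArG box of serum response factor (1.16%) were in none of the 13 windows. The matching windows of DUSP6, SPRY1, SPRED1 and PHLDA1 lay wholly within annotated exons. Only SPRED2 and SPRY2 held a match in the bases before any annotated exon. A match is a run of letters and not a measured site. Shown are the bases before any annotated exon for SPRY4 (chr5:142324418-142324497), among the members that fell most, SPRED2 (chr2:65432638-65432849), which fell in every line, and SPRY2 (chr13:80341127-80341376), which did not pass the test in HCC827 and H1975. All are on the minus strand, written 5′ to 3′ with AGGAAG, or CTTCCT where it was read on the other strand, in capitals.
SPRY4: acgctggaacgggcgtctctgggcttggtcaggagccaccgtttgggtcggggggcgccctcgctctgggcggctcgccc
SPRED2: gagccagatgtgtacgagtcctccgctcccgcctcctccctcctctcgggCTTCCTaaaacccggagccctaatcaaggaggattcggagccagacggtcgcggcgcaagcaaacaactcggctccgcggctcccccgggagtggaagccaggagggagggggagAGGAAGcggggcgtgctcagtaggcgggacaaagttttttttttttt
SPRY2: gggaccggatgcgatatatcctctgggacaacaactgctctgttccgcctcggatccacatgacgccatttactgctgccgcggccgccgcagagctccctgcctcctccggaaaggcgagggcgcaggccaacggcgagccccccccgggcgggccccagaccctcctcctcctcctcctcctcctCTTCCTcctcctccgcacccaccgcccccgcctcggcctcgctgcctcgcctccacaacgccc
The stretch of SPRY4 holds no match, that of SPRED2 holds 2 and that of SPRY2 holds 1.

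Under DMSO, levels were compared between genes in TPM, which corrects for length. DUSP4 was the highest member in PC9, at 49.9 ± 0.776 TPM (SD, n = 3), and its lowest replicate lay above all replicates of the next genes, DUSP6 (31.4 ± 5.13), PHLDA1 (31.1 ± 3.60) and DUSP5 (30.6 ± 3.70), which overlapped each other. PHLDA1 was the highest in HCC827 (50.4 ± 5.54 TPM) and in H1975 (39.0 ± 5.90 TPM), followed by SPRED2 at 30.1 ± 6.91 and 35.8 ± 2.29 TPM. PHLDA1 and SPRED2 did not overlap in HCC827 but overlapped in H1975, where PHLDA1 ran from 32.8 to 44.5 and SPRED2 from 33.5 to 38.1 TPM. DUSP6 led in HCC2935 at 134.9 ± 1.96 TPM, above SPRED2 at 49.6 ± 1.29 TPM, and was at 14.3 ± 1.51 TPM in HCC827 and 7.44 ± 1.43 TPM in H1975. SPRED3 was the lowest member in PC9, H1975 and HCC2935 (0.702, 1.56 and 0.410 TPM), while in HCC827 SPRED3 (2.93 ± 0.591) and SPRY4 (2.86 ± 1.29) overlapped at the bottom of the order. In HCC2935 SPRED3 had 3 to 16 counts per library and was not tested, which left 39 tests of a member in a line in each comparison.

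Acute osimertinib was compared with DMSO to ask how the feedback genes stood after 1 day of EGFR inhibition. Nearly all members were lower. In PC9, 9 of 10 members passed the test as lower, where 34.1% of all genes tested did so, and 9 of 10 were lower in HCC827 (22.1% of all genes), 9 of 10 in H1975 (23.7%) and 9 of 9 in HCC2935 (25.1%). The test was edgeR's quasi-likelihood F-test with Benjamini-Hochberg adjustment over all genes tested, and an adjusted p under 0.05 was a call. The median log2 fold change of the members was -2.24 in PC9, -1.41 in HCC827, -1.80 in H1975 and -2.72 in HCC2935, while the median over all genes lay between 0.0081 and 0.031. Of the 39 tests, 36 were lower calls, and the exceptions were SPRED3 in PC9 and SPRY2 in HCC827 and H1975.

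**Figure D1:**
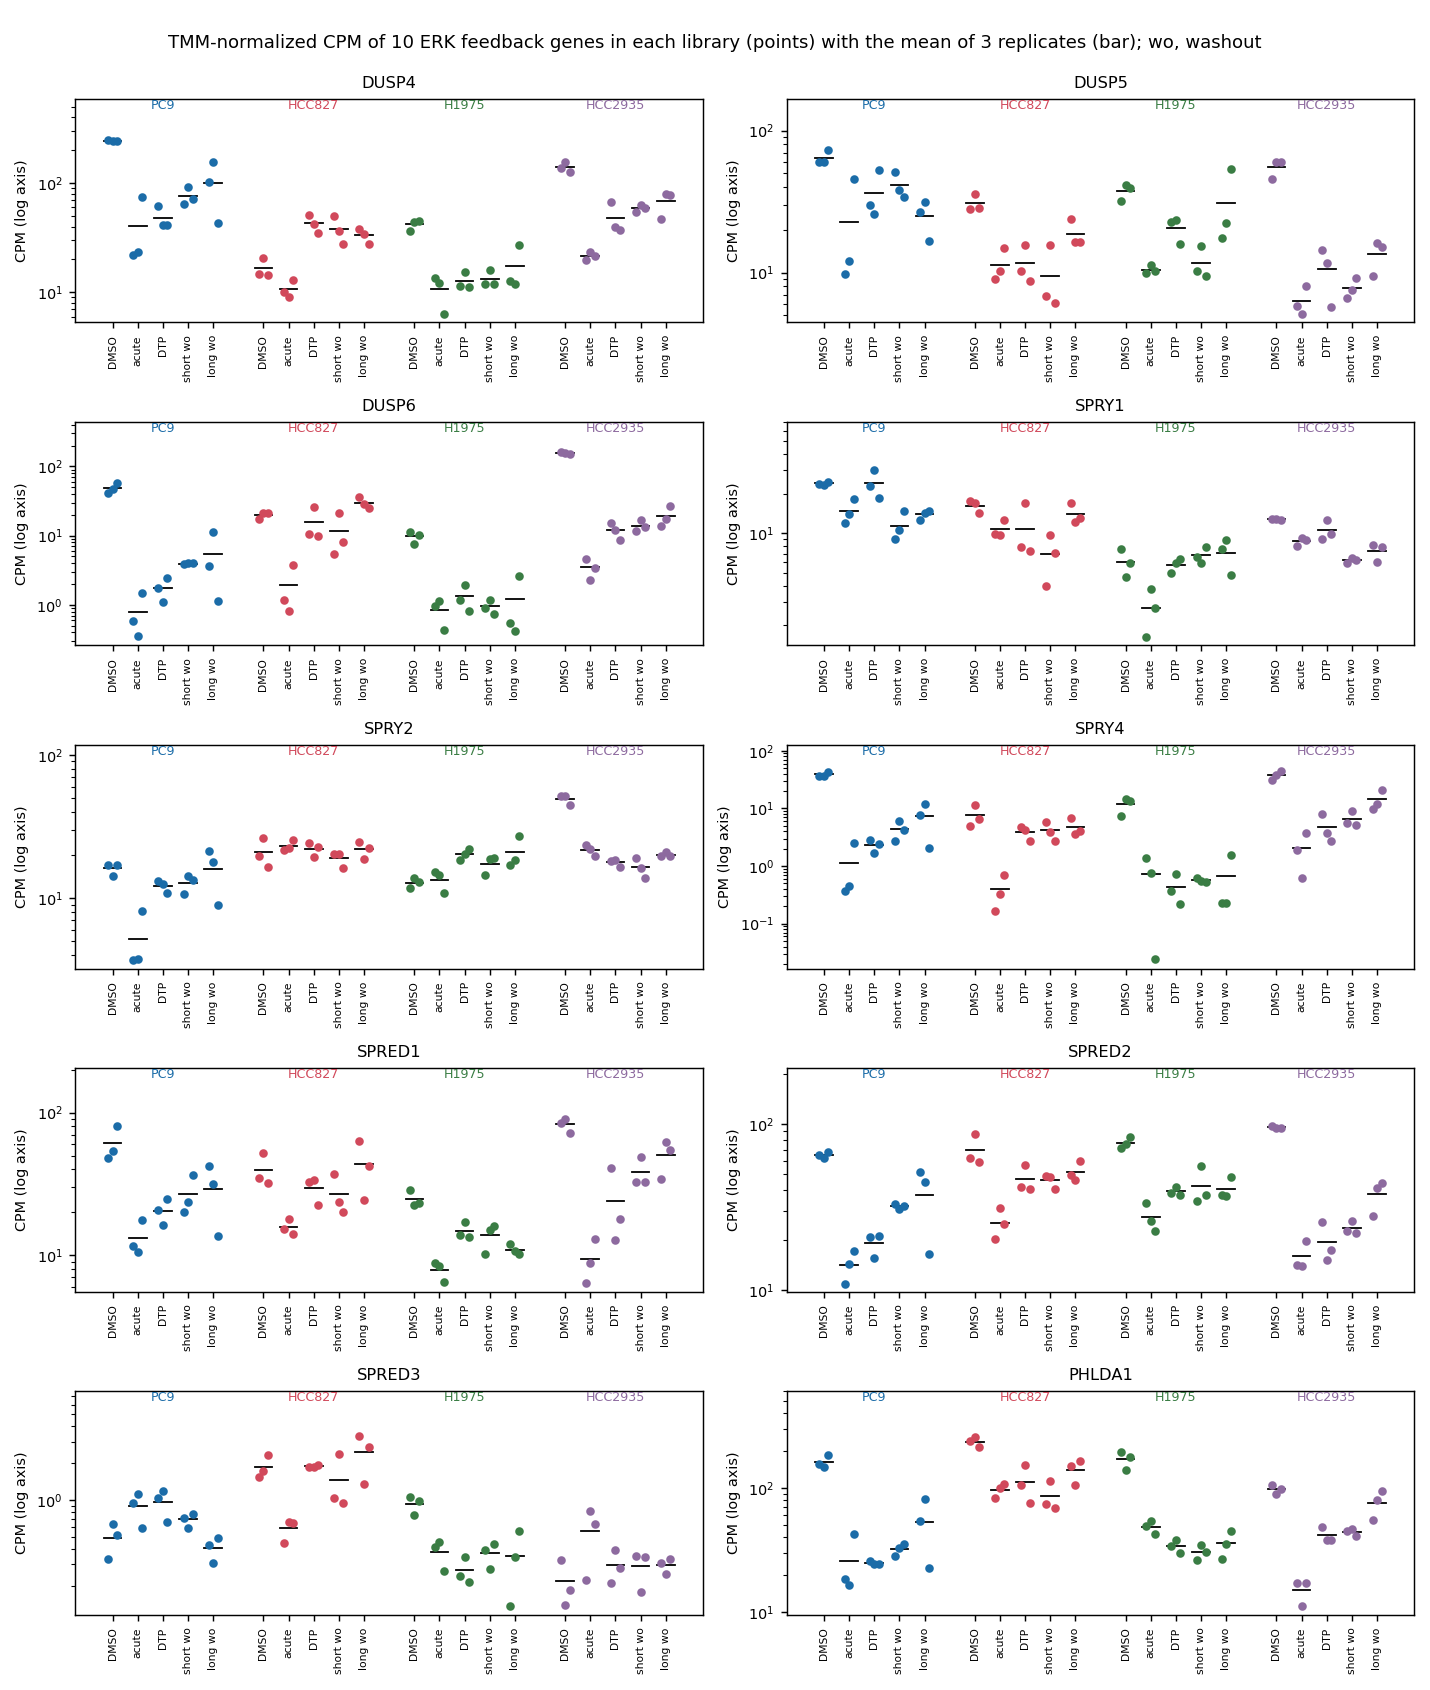
Level of each feedback gene in every library, in TMM-normalized CPM on a log axis, by cell line and arm. Points are libraries and bars the means of 3 replicates. DUSP6 and SPRY4 fall furthest with acute osimertinib in every line, SPRY2 stays level in HCC827 and H1975, and replicate 3 of the long washout of PC9 lies below its 2 partners in DUSP4, DUSP6, SPRY4, SPRED2 and PHLDA1.

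Among the phosphatase genes, DUSP6 fell most. In PC9 it was at 41.5, 48.0 and 57.5 CPM under DMSO and at 0.575, 0.352 and 1.46 CPM under acute osimertinib. In HCC2935 it was at 163, 158 and 152 CPM under DMSO and at 4.64, 2.32 and 3.43 CPM under the drug. The arms lay far apart in both lines, with log2 fold changes of -6.00 ± 0.36 in PC9 (± standard error, edgeR adjusted p = 1.51e-06) and -5.52 ± 0.19 in HCC2935 (edgeR adjusted p = 2.75e-07). In HCC827 DUSP6 went from 17.4, 21.4 and 21.3 to 1.17, 0.809 and 3.76 CPM. In H1975 it went from 11.4, 7.56 and 10.2 to 0.977, 1.13 and 0.436 CPM. No treated library reached a control library, and the log2 fold changes were -3.40 and -3.57. Replicate 3 of the acute arm was the highest in PC9 and HCC827, and without it DUSP6 changed by -6.78 and -4.37. DUSP4 fell by 2.64 on the log2 scale in PC9, by 2.03 in H1975 and by 2.72 in HCC2935, but by only 0.67 in HCC827 (edgeR adjusted p = 0.0242), where its level under DMSO was the lowest of the 4 lines at 14.7, 20.5 and 14.5 CPM. Without replicate 3 of the acute arm of PC9, where DUSP4 stood at 22.1, 23.3 and 75.2 CPM, its log2 fold change in that line was -3.47. The call in HCC827 was lost without replicate 2 of DMSO (-0.49) or replicate 1 (-0.63) or 2 (-0.56) of the acute arm. DUSP5 fell by 3.14 in HCC2935, 1.90 in H1975, 1.56 in PC9 and 1.46 in HCC827. In PC9 its acute libraries stood at 9.83, 12.0 and 45.9 CPM, with replicate 3 far above its partners. Without replicate 3 the log2 fold change of DUSP5 was -2.61, and the call was lost without replicate 2 of the acute arm (-1.25) or replicate 3 of DMSO (-1.46).

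Among the Sprouty genes, SPRY4 fell by 5.17 on the log2 scale in PC9, 4.25 in HCC827, 4.05 in H1975 and 4.17 in HCC2935. In HCC827 it was at 4.96, 11.6 and 6.59 CPM under DMSO and at 0.168, 0.333 and 0.706 CPM under osimertinib. In H1975 it was at 7.38, 14.3 and 13.3 CPM under DMSO and at 1.39, 0.748 and 0.0242 CPM under the drug, where the lowest value is close to the value of a single count. All treated libraries lay below all controls in every line. Replicate 3 of the acute arm of PC9 (2.53 CPM, against 0.374 and 0.452 in its partners) again stood highest, and without it the log2 fold change there was -6.58. SPRY4 changed by -4.92 in HCC827 and -4.88 in HCC2935 without replicate 3 of the acute arm, and by -4.96 in H1975 without replicate 1. SPRY1 fell by less, between 0.58 (HCC2935) and 1.23 (H1975) on the log2 scale. Its call was lost in HCC827 without replicate 1 of DMSO or replicate 1 or 2 of the acute arm (adjusted p between 0.0557 and 0.0689). In H1975 it was lost without replicate 1 or 3 of DMSO or replicate 3 of the acute arm (adjusted p between 0.0547 and 0.0713). SPRY2 fell in PC9, from 17.1, 14.4 and 17.0 to 3.68, 3.74 and 8.15 CPM, and in HCC2935, from 51.1, 51.5 and 44.5 to 23.3, 22.1 and 19.5 CPM. In HCC827 SPRY2 was at 19.7, 26.4 and 16.6 CPM under DMSO and 21.7, 22.3 and 25.5 CPM under osimertinib, and did not pass (0.12 ± 0.18, edgeR adjusted p = 0.631). In H1975 its log2 fold change was 0.01 ± 0.16 (edgeR adjusted p = 0.973). The arms overlapped in both of these lines.

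SPRED1 and SPRED2 fell in all 4 lines. SPRED2 was at 64.7, 62.7 and 67.5 CPM under DMSO in PC9 and at 10.9, 14.3 and 17.1 CPM under osimertinib. In HCC2935 it went from 97.5, 94.3 and 94.2 to 14.2, 14.1 and 19.7 CPM. Its log2 fold changes were -2.24 in PC9, -1.47 in HCC827, -1.55 in H1975 and -2.60 in HCC2935, with standard errors of 0.14 to 0.19. SPRED1 fell by 2.24, 1.36, 1.71 and 3.17 in the same order. SPRED3 was the lowest Spred gene, at no more than 3.32 CPM in any library. It fell in HCC827 (from 1.55, 1.72 and 2.35 to 0.447, 0.666 and 0.659 CPM) and in H1975 (from 1.06, 0.754 and 0.983 to 0.416, 0.454 and 0.266 CPM). The call in H1975 was lost without replicate 1 or 3 of DMSO or replicate 3 of the acute arm. In PC9 SPRED3 did not pass (0.79 ± 0.41, edgeR adjusted p = 0.119). PHLDA1 fell in all 4 lines, from 155, 148 and 184 to 18.5, 16.5 and 42.8 CPM in PC9 and from 238, 259 and 213 to 83.5, 101 and 107 CPM in HCC827. Its log2 fold changes were -2.69 in PC9, -1.32 in HCC827, -1.88 in H1975 and -2.71 in HCC2935.

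The acute changes differed in size between the lines. A test of 3 line-by-arm terms over 24 libraries called 8 of the 10 members, where it called 40.5% of all genes. The members called were DUSP4, DUSP5, DUSP6, SPRY2, SPRED1, SPRED2, SPRED3 and PHLDA1, and for all of these but SPRED3 the largest fall was in PC9 or HCC2935. SPRY4 (edgeR adjusted p = 0.674) and SPRY1 (edgeR adjusted p = 0.304) were not called.

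**Figure D2:**
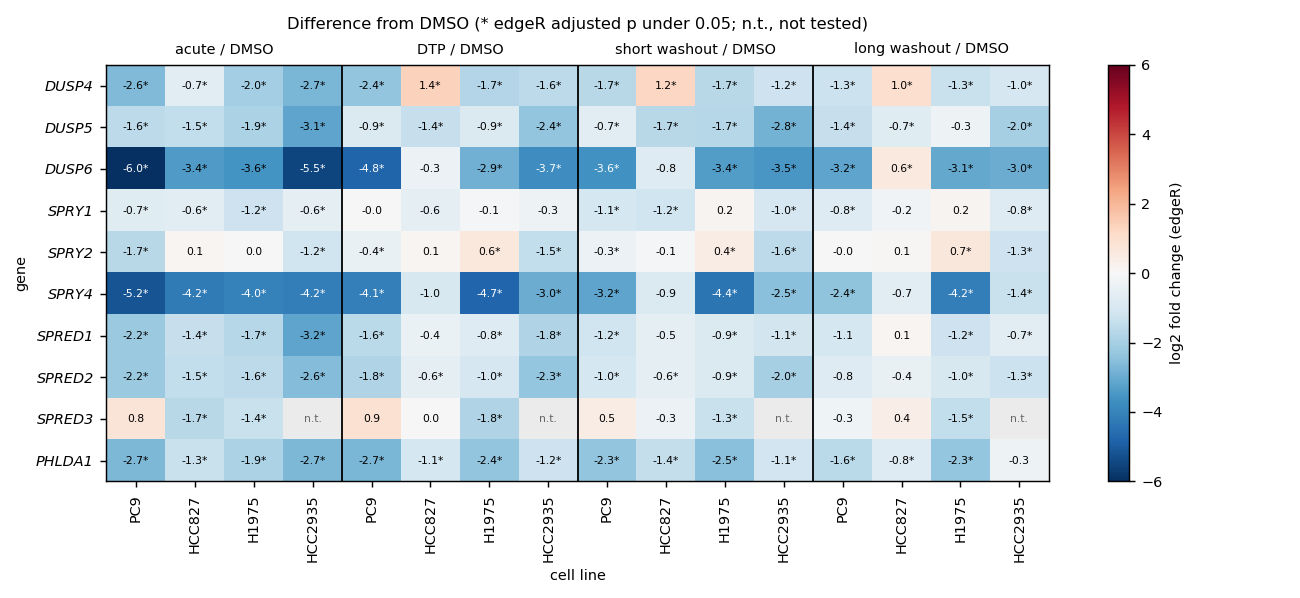
Log2 fold change of each feedback gene against DMSO in each line, for the acute, DTP, short washout and long washout arms. Blue is lower and red is higher than DMSO, stars mark edgeR adjusted p under 0.05, and n.t. marks a gene that was not tested. The columns of HCC827 lose most of their blue from DTP onward, while those of H1975 keep it through the long washout.

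Persisters were compared with DMSO to ask whether the feedback genes were still low after 21 days of drug. In PC9 8 of 10 members were lower (35.9% of all genes), in H1975 8 of 10 (23.4%) and in HCC2935 8 of 9 (27.2%). In HCC827 3 of 10 were lower (17.2% of all genes) and 1 was higher (19.4% of all genes), and in H1975 1 was higher (22.4% of all genes). The median log2 fold change of the members was -1.70 in PC9, -0.48 in HCC827, -1.37 in H1975 and -1.81 in HCC2935. DUSP6 stayed at 1.75, 1.11 and 2.45 CPM in DTPs of PC9, at 1.19, 1.95 and 0.816 CPM in DTPs of H1975 and at 15.2, 12.1 and 8.71 CPM in DTPs of HCC2935. These levels were 3.61%, 13.6% and 7.60% of the mean under DMSO. In HCC827, by contrast, DUSP6 was at 10.7, 26.2 and 9.90 CPM in DTPs, 78.0% of its DMSO mean, and did not pass (-0.34 ± 0.35, edgeR adjusted p = 0.480). Replicate 2 set that value, and without it the log2 fold change was -0.97 (edgeR adjusted p = 0.0111). SPRY1 also passed without that replicate (-1.10). SPRY4 in HCC827 was at 4.83, 4.20 and 2.68 CPM in DTPs, and did not pass (-0.96, edgeR adjusted p = 0.0768), against -4.09 in PC9, -4.74 in H1975 and -2.99 in HCC2935. SPRED1 in HCC2935 fell by 1.81, or by 2.44 without replicate 1 of DTPs.

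The higher calls of the DTP arm were DUSP4 in HCC827 and SPRY2 in H1975. DUSP4 was at 14.7, 20.5 and 14.5 CPM under DMSO and at 50.8, 42.2 and 34.9 CPM in DTPs of HCC827, a rise of 1.38 ± 0.20 on the log2 scale (edgeR adjusted p = 0.0011), while it was lower in the 3 other lines. SPRY2 was at 11.8, 13.8 and 12.9 CPM under DMSO and at 18.5, 20.4 and 22.0 CPM in DTPs of H1975 (log2 fold change 0.63, edgeR adjusted p = 0.00495). In both cases the arms did not overlap. The lower calls of HCC827 were DUSP5 (-1.39), PHLDA1 (-1.07) and SPRED2 (-0.56, edgeR adjusted p = 0.0479). The call of SPRED2 was lost without replicate 1 (-0.64) or 2 (-0.37) of DMSO or replicate 1 (-0.50) or 3 (-0.47) of DTPs. SPRY1 was called in no line without leaving out a library, with log2 fold changes between -0.58 and -0.04. At an unadjusted p under 0.05 it passed in none of the 4 lines either, nor did DESeq2 call it. The lines differed in 9 of the 10 members, all but SPRY1 (edgeR adjusted p = 0.480), where 61.6% of all genes differed between the lines in this comparison.

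Persisters were compared with the acute arm to ask whether the feedback genes stood higher after 21 days of drug than after 1 day. In PC9 3 of 10 members were higher (19.2% of all genes), in HCC827 6 of 10 (15.7%), in H1975 5 of 10 (11.2%) and in HCC2935 4 of 9 (22.0%), and PHLDA1 was lower in H1975 (14.9% of all genes). The median log2 fold change of the members was 0.67 in PC9, 0.89 in HCC827, 0.54 in H1975 and 1.16 in HCC2935. The acute and DTP arms enter the comparisons with DMSO as well, so these values share libraries with those above. In HCC827 the largest rises were those of SPRY4 (3.24, standard error 0.53), DUSP6 (3.02, standard error 0.61), DUSP4 (2.00), SPRED3 (1.67), SPRED1 (0.91) and SPRED2 (0.87). Without replicate 3 of the acute arm SPRY4 (3.91) and DUSP6 (3.98) rose by more, and without replicate 2 of DTPs DUSP6 rose by 2.43. The call of SPRED3 was lost without replicate 1 of the acute arm (1.51), and that of SPRED2 without replicate 3 of the acute arm (0.85). In HCC2935 DUSP6 rose by 1.79, PHLDA1 by 1.46, SPRED1 by 1.35 and DUSP4 by 1.16. The call of SPRED1 there was lost without replicate 1 (1.13) or 2 (1.31) of the acute arm or replicate 1 of DTPs (0.73). DUSP5 (1.05, without replicate 3 of DTPs) and SPRY4 (1.89, without replicate 3 of the acute arm) were called only then. SPRED1 was higher in all 4 lines, by 0.64 in PC9 and 0.89 in H1975.

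In PC9 the rest of this comparison turned on replicate 3 of the acute arm and on the fit. With all libraries SPRY2 (1.24), SPRY1 (0.71) and SPRED1 (0.64) were higher. Without that replicate DUSP4 (1.09), DUSP5 (1.74), DUSP6 (1.95), SPRY4 (2.50), SPRED2 (0.61) and PHLDA1 (0.51, edgeR adjusted p = 0.00803) were called higher too. PHLDA1 had a log2 fold change of -0.05 (edgeR adjusted p = 0.910) with all libraries, and SPRED2 was also called without replicate 2 of DTPs (0.58). With all libraries kept, edgeR with the replicate block called DUSP5 (adjusted p = 0.0255) and DUSP6 (adjusted p = 0.0284) higher. DESeq2 called SPRED2 (adjusted p = 0.0434). DUSP6, SPRY4 and SPRED2 were called by limma on log2 TPM, where the median of all genes was 0.28. A fit with all 15 libraries of PC9 lost the call of SPRED1. The call of SPRY1 was lost without replicate 1 (0.59) or 2 (0.68) of the acute arm or replicate 1 (0.74) or 2 (0.50) of DTPs. That of SPRED1 was lost without replicate 1 (0.56) or 2 (0.50) of the acute arm or replicate 1 (0.63) or 3 (0.49) of DTPs. In H1975 the higher members were SPRY1 (1.08), DUSP5 (0.96), SPRED1 (0.89), SPRY2 (0.57) and SPRED2 (0.50). Leaving out any 1 of 4 libraries (SPRY1) or 5 libraries (SPRY2 and SPRED2) removed the call, with adjusted p up to 0.139. PHLDA1 fell from 49.5, 53.7 and 42.2 CPM in the acute arm of H1975 to 34.3, 37.8 and 29.7 CPM in DTPs (-0.53, edgeR adjusted p = 0.0223), a call that was lost without replicate 2 of the acute arm (-0.45) or replicate 1 (-0.53) or 3 (-0.46) of DTPs.

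**Figure D3:**
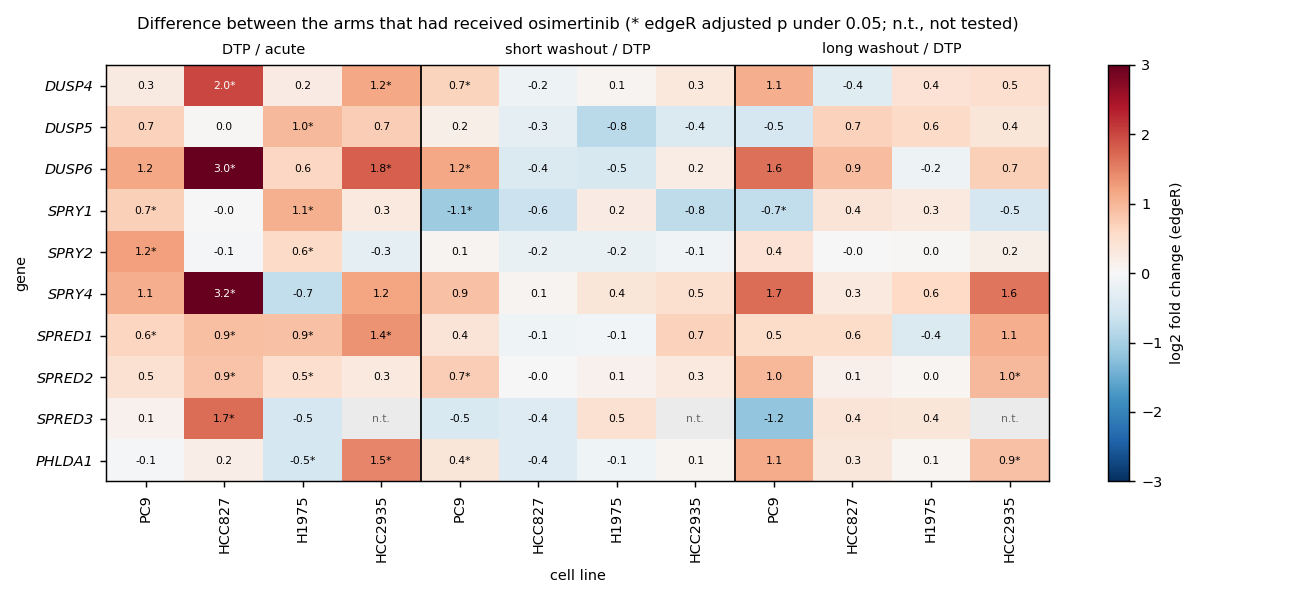
Log2 fold change of each feedback gene between the arms that had received osimertinib: DTP against acute, short washout against DTP and long washout against DTP, in each line. Red is higher in the first arm named, stars mark edgeR adjusted p under 0.05, and n.t. marks a gene that was not tested. Most stars lie in the DTP against acute block, and in the short washout block all stars are in PC9.

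Short washout was compared with DTPs to ask what 24 h without drug changed. In PC9 DUSP6 rose from 1.75, 1.11 and 2.45 CPM to 3.84, 4.02 and 3.98 CPM (1.15 ± 0.28 on the log2 scale, edgeR adjusted p = 0.0191), with no overlap between the arms. SPRED2 rose from 20.8, 15.6 and 21.2 to 32.9, 30.8 and 31.9 CPM (0.73, edgeR adjusted p = 0.00393). DUSP4 (0.67, edgeR adjusted p = 0.0255) and PHLDA1 (0.37, edgeR adjusted p = 0.0222) rose as well, while SPRY1 fell from 22.8, 30.5 and 18.5 to 9.07, 10.5 and 14.7 CPM (-1.06, edgeR adjusted p = 0.00975). So 4 of 10 members were higher (12.1% of all genes) and 1 was lower (10.1% of all genes). The call of DUSP6 was lost without replicate 2 of short washout (1.14, adjusted p = 0.0583). That of DUSP4 was lost without replicate 2 (0.58) or 3 (0.57) of DTPs or replicate 2 of short washout (0.51). PHLDA1 lost its call without replicate 2 or 3 of either arm (between 0.31 and 0.36). SPRY4 had a log2 fold change of 0.89 (edgeR adjusted p = 0.0744) and was called without replicate 1 of short washout (1.13). A fit with all 15 libraries of PC9, which takes the spread from 5 arms, called none of the 4 higher members.

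In the other lines no member was called. In HCC827 edgeR called 0.0% of all genes, with 197 of 14009 genes at an unadjusted p under 0.05 and 0 calls by DESeq2, and none of the 10 members was under an unadjusted 0.05. In H1975 edgeR also called 0.0% of all genes, with 1950 of 14665 genes at an unadjusted p under 0.05 and 399 calls by DESeq2. Same-numbered libraries of DTPs and short washout deviated together in these lines, with correlations of 0.402 to 0.694 in HCC827 and 0.249 to 0.599 in H1975. With the replicate block, 2 genes were called in HCC827 and 1697 in H1975, of which 714 were lower and 983 higher. DUSP5 was then lower in H1975, at 22.8, 23.6 and 15.8 CPM in DTPs and 10.2, 15.5 and 9.46 CPM after 24 h without drug (-0.82, edgeR adjusted p = 0.0021 with the replicate block, 0.234 without it). DUSP5 was lower in each of the 3 same-numbered pairs, and it was the 1 member of H1975 that DESeq2 called. In HCC2935 3.52% of all genes were called in either direction, and SPRY1 was nearest to a call among the members (-0.75, edgeR adjusted p = 0.0547). DESeq2 called SPRY1 there, and edgeR called it without replicate 1 of DTPs (-0.85), when DUSP4 (0.62) and SPRED1 (1.31) passed as well. The difference between lines in this comparison was called for none of the 10 members (0.0248% of all genes), with 1 member, SPRY1, at an unadjusted p under 0.05 and none called by DESeq2. The calls in PC9 are therefore not shown to differ from the other lines.

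Against DMSO, the short washout arm still had 9 of 10 members lower in PC9 (33.2% of all genes), 8 of 10 in H1975 (21.8%), 9 of 9 in HCC2935 (26.1%) and 4 of 10 in HCC827 (16.8%). DUSP4 was higher in HCC827 (1.23; 19.1% of all genes) and SPRY2 was higher in H1975 (0.43; 21.0% of all genes). DUSP6 was at 8.06% of its DMSO mean in PC9, 9.74% in H1975 and 8.81% in HCC2935, and at 57.7% in HCC827, where it stood at 5.39, 21.2 and 8.05 CPM. Replicate 2 was high there as it was among DTPs, and without it DUSP6 was lower in HCC827 (-1.57, edgeR adjusted p = 0.0034). SPRED1 was called in HCC827 without replicate 1 of short washout (-0.84), and the call of SPRED2 was lost without replicate 2 of DMSO (-0.38) or replicate 3 of short washout (-0.52). The call of SPRY2 was lost in PC9 without any 1 of 4 libraries (-0.37 to -0.23) and in H1975 without any 1 of 4 libraries (0.35 to 0.43). SPRED3 in H1975 lost its call without replicate 1 or 3 of DMSO or replicate 1 of short washout, with adjusted p up to 0.0623.

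Long washout was compared with DMSO to ask how far the feedback genes had returned. In HCC2935, 10 days without drug left 8 of 9 members lower (18.9% of all genes), in H1975 72 h left 7 of 10 lower (28.2%), in PC9 7 days left 6 of 10 lower (14.7%) and in HCC827 96 h left 2 of 10 lower (19.9%). DUSP4 and DUSP6 were higher in HCC827 (19.7% of all genes), and SPRY2 was higher in H1975 (26.8% of all genes). The median log2 fold change of the members was -1.17 in PC9, -0.07 in HCC827, -1.27 in H1975 and -1.26 in HCC2935, beside medians of all genes between -0.0090 and 0.014. DUSP6 was at 13.9, 17.4 and 27.2 CPM in HCC2935, 12.3% of the DMSO mean, with a change of -2.99 ± 0.22 on the log2 scale (edgeR adjusted p = 1.18e-05). In HCC827 DUSP6 was at 36.2, 28.7 and 24.8 CPM, above every DMSO library (0.57, edgeR adjusted p = 0.0257). That call was lost without replicate 1 of DMSO (0.47) or replicate 1 (0.44) or 2 (0.62) of the long washout. It was also lost in edgeR with the replicate block (adjusted p = 0.0647) and with all 15 libraries of the line (adjusted p = 0.376). The call of DUSP5 (-0.71) was lost without replicate 2 of the long washout (-0.60). SPRED2 was called in HCC827 without replicate 3 of DMSO (-0.54) or of the long washout (-0.56). PHLDA1 was the member of HCC2935 that did not pass (55.0, 79.3 and 93.8 CPM, against 105, 89.1 and 97.3 under DMSO), and it passed without replicate 3 of the long washout (-0.52). SPRED1 (-0.68) lost its call there without replicate 1 or 2 of DMSO.

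In PC9, replicates 1 and 2 of the long washout stood above replicate 3 in most members. DUSP6 was at 3.69, 11.4 and 1.14 CPM, SPRY4 at 7.67, 12.0 and 2.02 CPM, SPRED2 at 51.5, 44.6 and 16.6 CPM and PHLDA1 at 53.7, 81.9 and 22.6 CPM. With all 3 replicates, DUSP6 had a log2 fold change of -3.17 against DMSO, SPRY4 of -2.41 and PHLDA1 of -1.62. Without replicate 2 DUSP6 changed by -4.34. Without replicate 3 these were -2.69, -1.97 and -1.26, and SPRED1 (-0.73) and SPRED2 (-0.43) passed as lower too. SPRED1 also passed without replicate 1 of the long washout (-1.44). Leaving out other libraries removed calls: that of DUSP4 (-1.28) without any replicate of DMSO or replicate 1 of the long washout, those of DUSP6 and SPRY4 without replicate 3 of DMSO, and that of PHLDA1 without replicate 1 or 3 of DMSO or replicate 1 of the long washout. In H1975 replicate 3 of the long washout was high in the phosphatase genes, with DUSP4 at 12.8, 11.8 and 27.3 CPM, DUSP5 at 17.6, 22.3 and 53.4 CPM and DUSP6 at 0.549, 0.418 and 2.65 CPM. Without it DUSP5 passed as lower (-0.95, edgeR adjusted p = 0.00375), DUSP6 went from -3.06 to -4.36 and SPRY4 from -4.15 to -5.68. SPRED3 in H1975 (-1.46) lost its call without replicate 1 or 3 of DMSO or replicate 1 or 2 of the long washout.

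A comparison of long washout with DTPs was added after the files had been seen. It called SPRY1 as lower in PC9 (5.47% of all genes) and SPRED2 (0.97) and PHLDA1 (0.88) as higher in HCC2935 (2.99% of all genes), while no member was called in HCC827 (0.0% of all genes) or H1975 (0.0136% of all genes, in either direction). In HCC827 434 of 14053 genes had an unadjusted p under 0.05 and DESeq2 called 7 genes, none of them a member, and DUSP5 and DUSP6 were members under an unadjusted 0.05. In H1975 SPRED1 alone was, and DESeq2 called no member. In PC9 the long washout minus replicate 3 differed: DUSP4 (1.46), DUSP6 (2.13), SPRY2 (0.72), SPRY4 (2.11), SPRED1 (0.88), SPRED2 (1.36) and PHLDA1 (1.49, edgeR adjusted p = 0.000299) were then called higher, and SPRED3 (-1.34) lower. The call of SPRY1 in PC9 was lost without replicate 1 or 2 of the long washout or any replicate of DTPs (-0.90 to -0.52). In HCC2935 SPRED2 went from 25.7, 15.3 and 17.4 CPM in DTPs to 28.0, 41.3 and 44.3 CPM, and PHLDA1 from 48.7, 37.8 and 37.8 to 55.0, 79.3 and 93.8 CPM, with no overlap. Both calls were lost without any replicate of DTPs or replicate 2 or 3 of the long washout, while SPRY4 (1.60) was called without replicate 1 of the long washout (1.83). With the replicate block no member was called in this comparison in any line.

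**Figure D4:**
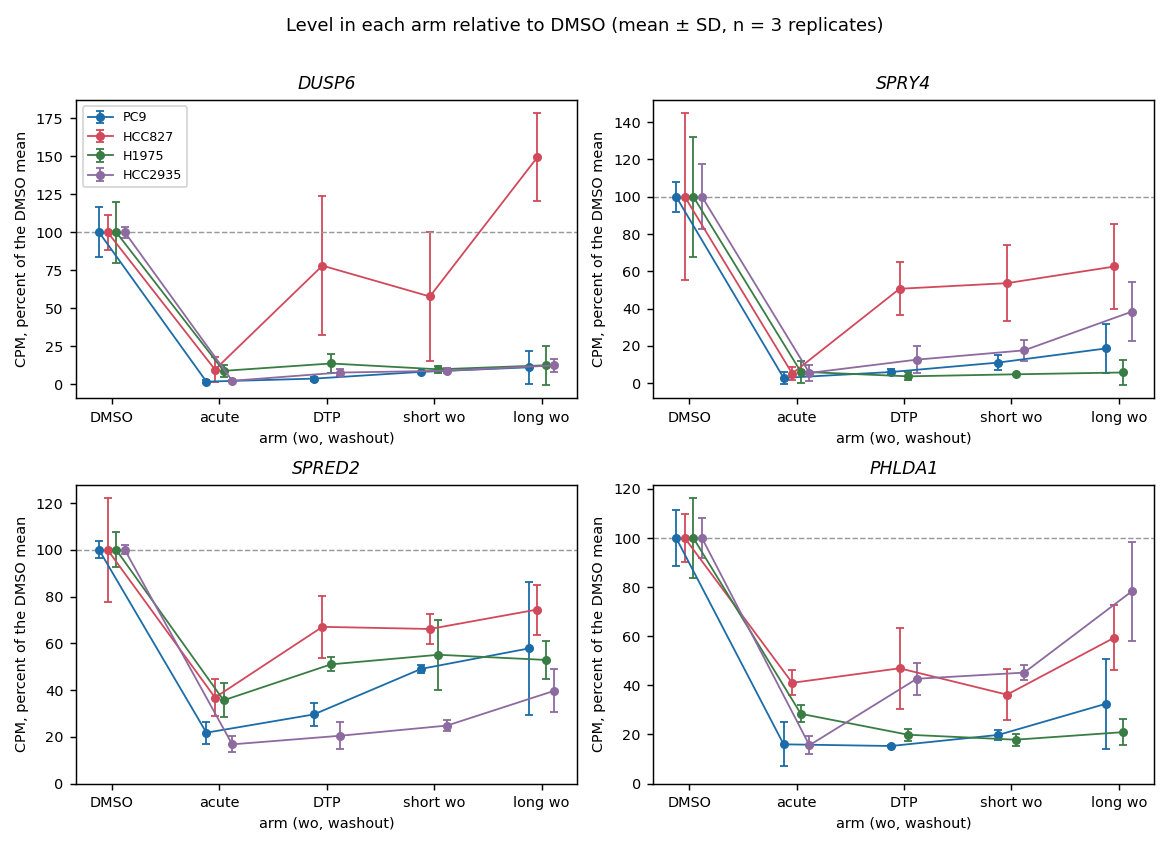
Level of DUSP6, SPRY4, SPRED2 and PHLDA1 in each arm, as a percent of the mean CPM under DMSO in the same line. Points are means, bars are SD of 3 replicates, and the dashed line is the DMSO mean. DUSP6 is at 1.62% to 9.57% of DMSO in the acute arm. In HCC827 it reaches 78.0% in persisters and 149% after the long washout, a rise that not every fit called. In the 3 other lines it has a mean of 11.1% to 12.4% after the long washout. In H1975 that mean rests on replicate 3 (2.65 CPM, against 0.549 and 0.418), and in PC9 the replicates ran from 1.14 to 11.4 CPM.

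Proliferation genes moved beside the feedback genes. All 12 genes of a proliferation list fell with acute osimertinib in each line, 48 of 48 tests (100%, beside 26.2% over all genes). E2F1, CDK1, PCNA and CCNA2 had median log2 fold changes of -2.36, -2.30, -2.28 and -2.15 over the lines. The mean log2 level of the list was at a median of 7.26 under DMSO, 6.01 in DTPs and 7.11 after long washout in PC9, and at 6.86, 5.17 and 6.39 in HCC2935. In HCC827 it was at 7.18, 5.96 and 5.97, and in H1975 at 7.46, 5.78 and 5.56, so that in these lines the list stood about as low after the long washout as in DTPs. After the short washout the median was 6.28 in PC9, 5.80 in HCC2935, 6.24 in HCC827 and 6.61 in H1975. In H1975 short washout libraries ran from 6.37 to 6.89 and DTP libraries from 5.29 to 6.41. HCC827 thus had DUSP6 at 149% of its DMSO mean after the long washout, a rise that not every fit called, while its proliferation genes were low. The part of the cell cycle in the level of the feedback genes was not tested.

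Other genes of the pathway were followed by lists. Of 11 further genes known to be induced by ERK, 31 of 42 tests in a line were lower with acute osimertinib (73.8%, beside 26.2% over all genes) and 1 was higher. The transcription factor genes FOSL1 (between -4.87 and -3.32 on the log2 scale over the lines), ETV4 (-3.99 to -3.56), ETV1 (-4.37 to -2.98) and ETV5 (-4.67 to -3.01) fell in all 4 lines. In DTPs 22 of 41 tests of this list were higher than in the acute arm (53.7%, beside 17.0% over all genes) and none was lower (17.4% over all genes), with 7 of 10 in HCC827, 8 of 10 in HCC2935, 6 of 11 in PC9 and 1 of 10 in H1975. After the long washout 18 of 42 tests were lower than DMSO (42.9%, beside 20.5% over all genes) and 3 were higher (7.14%, beside 20.9%). FOSL1 was lower in every line then, by 1.84 in PC9, 1.48 in HCC827, 2.61 in H1975 and 1.26 in HCC2935. HCC827 thus had DUSP6 above DMSO, which not every fit called. FOSL1 (-1.48, edgeR adjusted p = 0.000797), ETV4 (-0.99) and ETV5 (-0.79) were below DMSO in the same libraries. Of 10 tests of the list in that line, 4 were lower (19.9% of all genes) and 2 were higher (19.7% of all genes). DUSP6 was therefore not alone above DMSO there.

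Other MAP kinase phosphatases were called in both directions. Of 32 tests of 8 such genes, 11 were lower and 11 higher in the acute arm, 34.4% each way, where 26.2% of all tests of genes in the 4 lines were lower and 24.4% higher. DUSP7, an ERK phosphatase of the cytoplasm, fell in all 4 lines, by 2.71 in PC9, 0.90 in HCC827, 1.31 in H1975 and 1.77 in HCC2935. DUSP1, a nuclear phosphatase induced by stress, was higher in PC9 (1.43) and HCC827 (2.50), while its lowest log2 fold change over the lines was -0.54. In DTPs DUSP1 was higher than DMSO in all 4 lines, by 3.73 in PC9, 3.32 in HCC827, 1.22 in H1975 and 1.74 in HCC2935. DUSP8 rose in HCC827 (2.24) and H1975 (2.01), fell in HCC2935 (-0.52) and did not pass in PC9 (1.21). DUSP2 fell in PC9 (-3.18) and HCC2935 (-2.74) and did not pass in HCC827 (-0.76) or H1975 (0.63). Of the genes of the cascade itself, 20 of 56 tests were lower (35.7%) and 8 higher (14.3%) in the acute arm, beside the same shares of 26.2% and 24.4% over all genes. MAPK3, which encodes ERK1, rose in all 4 lines by 0.46 to 1.11, while MAP2K1 (MEK1) had log2 fold changes of -1.09 to -0.69. EGFR itself was at -0.87 to -0.22. Among 8 other inhibitors of EGFR signalling, 13 of 31 tests were lower (41.9%, beside 26.2% over all genes) and 9 higher (24.4% over all genes). ERRFI1, whose product binds and inhibits the EGFR kinase, fell in all 4 lines by 0.46 to 1.79, and CBLB, a ubiquitin ligase gene, rose in all 4 lines by 0.75 to 2.21. RASA1 (-0.75 to -0.29) and LRIG1 (-0.33 to 1.13) complete the genes that were named from this list.

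The 9 members whose mean level reached 1 CPM were correlated with each other over the 60 libraries after the mean of each line had been taken off. The 36 pairs had a median Pearson correlation of 0.73, with the highest for DUSP6 and SPRY4 (0.92), SPRY4 and SPRED2 (0.91) and SPRY4 and PHLDA1 (0.90). SPRY1 had the lowest of these pooled values, 0.12 with DUSP4 and 0.23 with SPRY4. Within single lines of 15 libraries other pairs were lower, such as SPRY2 with PHLDA1 (-0.55) and with SPRY4 (-0.40) in H1975, and DUSP4 with SPRY1 (-0.31), PHLDA1 (-0.20) and DUSP5 (-0.20) in HCC827. Measured against the mean profile of the 9 members, the non-members most like it among 13805 genes were FOSL1 (0.917), SUZ12 (0.901), ETV5 (0.898), MFSD2A (0.897), BRIX1 (0.894), ETV4 (0.894), MCMBP (0.885) and NOC3L (0.879). DUSP6 (0.943) and SPRY4 (0.930) ranked 2 and 3, SPRED2 ranked 1 (0.950), while SPRY2 ranked 1442 and SPRY1 2821. The values of each member are part of the profile, which raises its correlation, so that ranks of members and non-members are not on equal terms. The libraries share arms, lines and depth, and these correlations are descriptions without a test.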

How the data were processed

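RNA was sequenced as paired-end mRNA libraries. For each gene symbol the authors deposited estimated counts, not whole numbers and not normalized between libraries, and log2 values of TPM with a pseudocount of 0.01 for the same 19712 genes. The submitters' processing notes name HISAT2 2.1.0, Salmon 0.8.2 and hg38 without saying which step used which, and the annotation and the use of strand are not given in the sources used here.

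Estimated counts were rounded and tested with edgeR 4.0.16 (R 4.3.3): TMM normalization, filterByExpr, and the quasi-likelihood F-test on the 6 libraries of a comparison, with p-values adjusted over all genes tested and calls under 0.05. Differences between lines were tested by 3 interaction terms over 24 libraries. Alternatives were DESeq2 1.42.0, RLE size factors, no filter, limma 3.58.1 on the deposited log2 TPM values, a replicate block, all 15 libraries of a line in 1 fit, and each library left out. The scripts were tested on simulated data. Tables and figures used Python 3.11.15, pandas 2.3.3, numpy 2.4.6 and matplotlib 3.10.9.

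Replicate numbers come from the sample titles. Same-numbered libraries were regarded as pairs where every pair's deviations from the group means correlated above 0.1. This held in 3 of 28 comparisons: short washout against DTP in HCC827 and in H1975, and acute against DMSO in HCC2935 (0.126 to 0.357). The main tests, and those of differences between lines, used no replicate block in any comparison, including these 3. The block was fitted only as an alternative.

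The members, the gene lists and the tests were chosen with earlier results of these data known. Named were all members, at most 4 genes of each list with the largest absolute median log2 fold change in the acute comparison among those tested in all 4 lines, and the 8 non-members most correlated with the members. A gene named by this rule is not reported here.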

Additional observations from a re-analysis of the deposited data

Results flagged for a closer look

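Members whose change differed between the lines, by the test of the 3 line-by-arm terms in edgeR with adjustment over all genes, are given here with the range of their log2 fold changes over the lines. No test of why they differ was made.

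In acute osimertinib against DMSO these were SPRY2 (adjusted p = 0.000169, from -1.68 in PC9 to 0.12 in HCC827), SPRED3 (adjusted p = 0.00123, from -1.68 in HCC827 to 0.79 in PC9), DUSP6 (adjusted p = 0.00139, from -6.00 in PC9 to -3.40 in HCC827) and SPRED1 (adjusted p = 0.00191, from -3.17 in HCC2935 to -1.36 in HCC827). SPRED2 (adjusted p = 0.00337, from -2.60 in HCC2935 to -1.47 in HCC827), PHLDA1 (adjusted p = 0.0059, from -2.71 in HCC2935 to -1.32 in HCC827), DUSP4 (adjusted p = 0.00607, from -2.72 in HCC2935 to -0.67 in HCC827) and DUSP5 (adjusted p = 0.0478, from -3.14 in HCC2935 to -1.46 in HCC827) followed. HCC827 had the smallest fall in 6 of these 8 genes.

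In DTPs against DMSO the differences were those of DUSP4 (adjusted p = 1.55e-08, from -2.38 in PC9 to 1.38 in HCC827), SPRY2 (adjusted p = 4.77e-07, from -1.48 in HCC2935 to 0.63 in H1975), DUSP6 (adjusted p = 6.87e-07, from -4.82 in PC9 to -0.34 in HCC827) and PHLDA1 (adjusted p = 1.42e-05, from -2.75 in PC9 to -1.07 in HCC827). SPRED2 (adjusted p = 1.85e-05, from -2.31 in HCC2935 to -0.56 in HCC827), SPRY4 (adjusted p = 5.3e-05, from -4.74 in H1975 to -0.96 in HCC827), SPRED3 (adjusted p = 0.00134, from -1.81 in H1975 to 0.90 in PC9), DUSP5 (adjusted p = 0.00731, from -2.39 in HCC2935 to -0.87 in PC9) and SPRED1 (adjusted p = 0.0202, from -1.81 in HCC2935 to -0.41 in HCC827) also differed.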

How the results depend on the processing

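Counts of members called over the 4 lines stayed within 1.5 times of the main count for the acute arm against DMSO (32 with the replicate block to 36 lower, against 36), DTPs against DMSO (25 to 29 lower, against 27), DTPs against the acute arm (15 to 24 higher, against 18), short washout against DMSO (28 to 31 lower, against 30), long washout against DMSO (19 to 25 lower, against 23) and the differences between lines. Counts near 0 moved. Short washout against DTPs had 1 lower and 4 higher members, against 3 lower with DESeq2, 2 lower without a filter, 2 lower with the replicate block, 2 lower with all 15 libraries of a line and 0 higher with these 15 libraries. Leaving out single libraries gave 1 to 2 lower and 1 to 6 higher. Short washout against DMSO had 2 higher members, 1 with all 15 libraries and 1 to 2 with single libraries left out. Long washout against DMSO had 3 higher members, 2 with the replicate block, 2 with all 15 libraries and 2 to 3 with libraries left out. DTPs against DMSO had 2 higher members, and 3 with limma or all 15 libraries. The added call was SPRED3 in PC9 (adjusted p = 0.0109 in limma and 0.0386 in edgeR with all 15 libraries). DTPs against the acute arm had 1 lower member, 0 with limma on log2 TPM and 0 to 1 with libraries left out. Long washout against DTPs had 1 lower and 2 higher members. The lower count was 0 with the replicate block, 2 with all 15 libraries and 0 to 2 with libraries left out, and the higher count was 7 with DESeq2, 0 with limma, 0 with the replicate block, 7 with all 15 libraries and 0 to 9 with libraries left out, where 9 came without replicate 3 of the long washout of PC9. The cause was not tested.

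Of 3274 log2 fold changes of single members under an alternative, 3071 kept their side of the threshold. Where neither fit called a member, its direction was not compared, and some of these values changed sign. A further 138 fell below the threshold, 64 rose past it and 1 changed direction with a call. That was PHLDA1 in PC9 DTPs against acute, 0.51 without replicate 3 of the acute arm (range with single libraries left out -0.29 to 0.51). The log2 TPM values moved the median of all genes in PC9 DTPs against DMSO to 0.29, from 0.02 in CPM. They moved it nearly as far in PC9 DTPs against acute (to 0.28, from 0.01) and short washout against DMSO (to 0.25, from 0.01). In HCC2935 DTPs against DMSO it went to 0.17, from -0.0013. The replicate block changed calls of the acute arm in HCC827 and H1975 (7 lower members each, against 9), where the numbers are not shown to pair the samples, and in the comparisons where they do it added DUSP5 in H1975. Depth limits SPRED3, with 3 to 16 counts per library in HCC2935.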
